A study of Arabidopsis thaliana with 6 samples.

Results

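Among the transcripts that were low in an Arabidopsis thaliana line named for VQ1 and VQ10 were 4 noncoding RNAs, AT2G01422, AT4G04223, AT1G67105 and AT4G14548. They are 4 of 32833 genes in the count files and of 12701 genes tested. They were selected on their counts in the 2 genotypes, as annotated noncoding RNAs with an adjusted p under 0.05 and a lower level in the line, so their difference between the genotypes is described here with no test. The data are 3′ RNA-seq, which reads transcripts at their 3′ ends, of whole seedlings with 3 libraries per genotype. Wild type was Col-0, the standard laboratory accession. The line, amiRNA-VQ1,10, carries an artificial microRNA, made to direct the cleavage of chosen transcripts. The sources used here do not give its promoter or the number of independent lines sampled. Seedlings of both genotypes were 14 days old and grew in 16 h light (150 µmol/m2/s) and 8 h dark. They were kept in normoxia (21% O2) on medium with 1% sucrose, and were collected at zeitgeber time 4 h. The library titles call the line Rvq110.

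Noncoding RNAs are transcripts for which the annotation gives no protein. Plant genomes make many kinds: precursors of microRNAs and of trans-acting small RNAs, decoys that hold a microRNA, antisense transcripts, and long transcripts between genes. Some stem from repeated or transposon-derived sequence, which plants keep under control through small RNAs and DNA methylation. No function is given here for the 4 RNAs, since the reference annotates none and describes each product as other RNA.

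All 4 genes lie on nuclear chromosomes and on the plus strand of TAIR10.1, the RefSeq build. AT2G01422 lies at chr2:183940-184734, AT4G04223 at chr4:2036511-2037816, AT1G67105 at chr1:25057479-25058264 and AT4G14548 at chr4:8347010-8347764. AT1G67105 and AT4G14548 have 1 exon each, with 786 and 755 bases. AT2G01422 has an unspliced transcript of 795 bases and one of 2 exons and 533 bases. AT4G04223 has a transcript of 3 exons and 549 bases and one of 2 exons and 429 bases. The longest open reading frame from an ATG to a stop codon had 35 codons in AT2G01422, 55 in AT4G04223, and 33 in both AT1G67105 and AT4G14548. No annotated gene overlaps any of the 4.

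The sequences showed relations that the choice of the 4 RNAs had not used. AT2G01422 and AT4G14548 are related: 439 aligned bases were 68.1% identical in the same orientation. The 120 alignment columns with the most identical bases are shown for both, since they carry this relation. Capitals mark the bases of the 86 alignment columns at which they are the same. Gaps of the alignment are left out, so each line has 118 bases and the lines are not in register throughout. The stretches are chr2:184107-184224 and chr4:8347156-8347273 of TAIR10.1, plus strand.
AT2G01422: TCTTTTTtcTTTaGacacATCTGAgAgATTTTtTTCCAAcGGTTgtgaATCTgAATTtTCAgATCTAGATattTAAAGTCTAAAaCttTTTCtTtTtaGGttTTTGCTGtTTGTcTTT
AT4G14548: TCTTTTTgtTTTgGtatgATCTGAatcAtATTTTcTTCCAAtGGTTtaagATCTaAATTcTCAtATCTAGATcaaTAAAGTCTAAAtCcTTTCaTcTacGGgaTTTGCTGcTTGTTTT

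AT4G04223 has a near-identical copy elsewhere. Its whole length matched a stretch of chromosome 3 within AT3G56210, a protein-coding gene, with 99.2% identity and 10 differences in 1307 aligned bases. The copy lies past the coding part of AT3G56210, in the same orientation as that gene. The longest stretch without a difference was 500 bases. In the last 150 bases of AT4G04223, where 3′ reads are expected, the copies differed at 1 base, 83 bases before the end of the gene. That base is the capital in these 30 bases of chr4:2037718-2037747 (TAIR10.1, plus strand), which are shown because they are what sets the 3′ ends apart.
AT4G04223: cacaaaataatattcCgaaaacactagttc
Counts of AT4G04223 and AT3G56210 are therefore uncertain, because the counting could give a read from one to the other or set it aside as having more than 1 alignment.

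AT2G01422 has a run of A inside its last 150 bases, but not at its annotated end. AT1G67105 and AT4G14548 end in runs of A, and all these runs are part of the chromosome. AT1G67105 has 10 A before its annotated end and 10 directly after it, and AT4G14548 has 6 and 2. The last 150 bases of both are shown with the run in capitals, because 3′ reads are expected there (chr1:25058115-25058264 and chr4:8347615-8347764, TAIR10.1, plus strand). Where the reads fall was not examined.
AT1G67105: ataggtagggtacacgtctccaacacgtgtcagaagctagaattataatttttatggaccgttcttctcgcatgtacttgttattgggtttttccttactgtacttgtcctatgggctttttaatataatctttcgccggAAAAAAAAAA
AT4G14548: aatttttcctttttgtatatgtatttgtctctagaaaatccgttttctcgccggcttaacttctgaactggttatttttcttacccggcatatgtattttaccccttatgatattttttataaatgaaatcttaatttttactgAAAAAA

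Library totals over genes lay between 926209 and 1329817 counts, the lowest in amiRNA-VQ1,10 replicate 2, which also stood apart on the first principal component. VQ1 had 5, 1 and 2 counts in wild type and 0, 0 and 0 in amiRNA-VQ1,10, and VQ10 had 1 count in wild type replicate 1 and 0 elsewhere. The leaf markers RBCS1A, LHCB2.1 and CA1 and the root markers PYK10, DR4 and TIP2;3 were present in both genotypes, as a whole seedling should have them. The remaining listed root marker, NRT2.1, had 3, 4 and 2 counts in wild type and 0, 2 and 4 in amiRNA-VQ1,10, too few to be tested. Seed and flower markers were near or at 0. None of the 6 tested tissue markers passed in edgeR. An unadjusted p under 0.05 in edgeR was found for 3 of them (RBCS1A, PYK10 and DR4), against 6.02% of all tested genes. Each of the 3 had a higher mean in the line. In the line PYK10 had 1240, 1273 and 1164 counts and DR4 had 184, 248 and 194. Both were highest in replicate 2, the library with the lowest total. DR4 had 165 ± 3.92 CPM in wild type and 206 ± 60.3 CPM in the line (SD, n = 3). PYK10 had 1030 ± 65.8 CPM in wild type and 1202 ± 201 CPM in the line (SD, n = 3), and its part in the results was not tested. In such bulk samples fewer cells of a type and less RNA per cell cannot be told apart.

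AT2G01422 was the most abundant of the 4 in wild type and had the largest difference. Levels are in CPM, the count of a gene per 1e6 counts of the scaled library total. 3′ counts do not grow with transcript length. In wild type it had 110, 117 and 83 counts, and in amiRNA-VQ1,10 it had 7, 1 and 3. These were 95.8, 90.0 and 75.1 CPM against 6.60, 1.11 and 2.63 CPM. Every amiRNA-VQ1,10 library lay far below every wild type library, and replicate 2, the shallowest, was the lowest. The means were 87.0 ± 10.7 and 3.45 ± 2.83 CPM (SD, n = 3), so the line held 3.96% of the wild type level. The log2 fold change was -4.58 ± 0.28 (SE). On the summed counts, 310 against 11, wild type was 24.6-fold higher, with an exact 95% interval of 13.6 to 49.8 that covers counting error only.

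AT4G04223, the RNA with the near-identical copy, had 34, 36 and 30 counts in wild type and 3, 1 and 3 in amiRNA-VQ1,10. This was 29.6, 27.7 and 27.2 CPM against 2.83, 1.11 and 2.63 CPM. The wild type libraries were close to each other and none came near the amiRNA-VQ1,10 libraries, which differed by 2 counts at most. The wild type SD of 1.29 CPM was below the 4.88 CPM that counting alone would give. The log2 fold change was -3.58 ± 0.36 (SE). The ratio of the summed counts was 12.5, with an interval of 5.83 to 31.8. The line held 7.78% of the wild type level.

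AT1G67105 was lower in the line but still well above 0. Its counts were 67, 74 and 67 in wild type and 20, 10 and 14 in amiRNA-VQ1,10. The CPM were 58.3, 56.9 and 60.6 in wild type and 18.9, 11.1 and 12.3 in amiRNA-VQ1,10. The groups did not overlap, and amiRNA-VQ1,10 replicate 1 was the highest of its group. The log2 fold change was -2.04 ± 0.21 (SE), and the line held 24.0% of the wild type level. The ratio of the summed counts was 4.13 (interval 2.97 to 5.85). AT1G67105 was the only 1 of the 4 that stood above 8.70 CPM, the level the low-count filter asks for in 3 libraries, in all 6 libraries. The other 3 passed that filter through wild type only, where they are high.

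AT4G14548 was the least abundant of the 4 in wild type and had the smallest difference. Its counts were 27, 27 and 18 in wild type and 6, 7 and 8 in amiRNA-VQ1,10. Wild type stood at 23.5, 20.8 and 16.3 CPM and amiRNA-VQ1,10 at 5.66, 7.79 and 7.00 CPM. The groups did not overlap, although the lowest wild type library was only 2.09-fold above the highest of the line. By CPM, unlike in the other 3 RNAs, amiRNA-VQ1,10 replicate 2 was here the highest of its group and replicate 1 the lowest. By count replicate 3 was the highest, and the exact 95% intervals of these 3 libraries overlap, so nothing is read from this order. The log2 fold change was -1.56 ± 0.31 (SE), and the line held 33.8% of the wild type level. The ratio of the summed counts was 2.99 (interval 1.82 to 5.13).

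**Figure D1:**
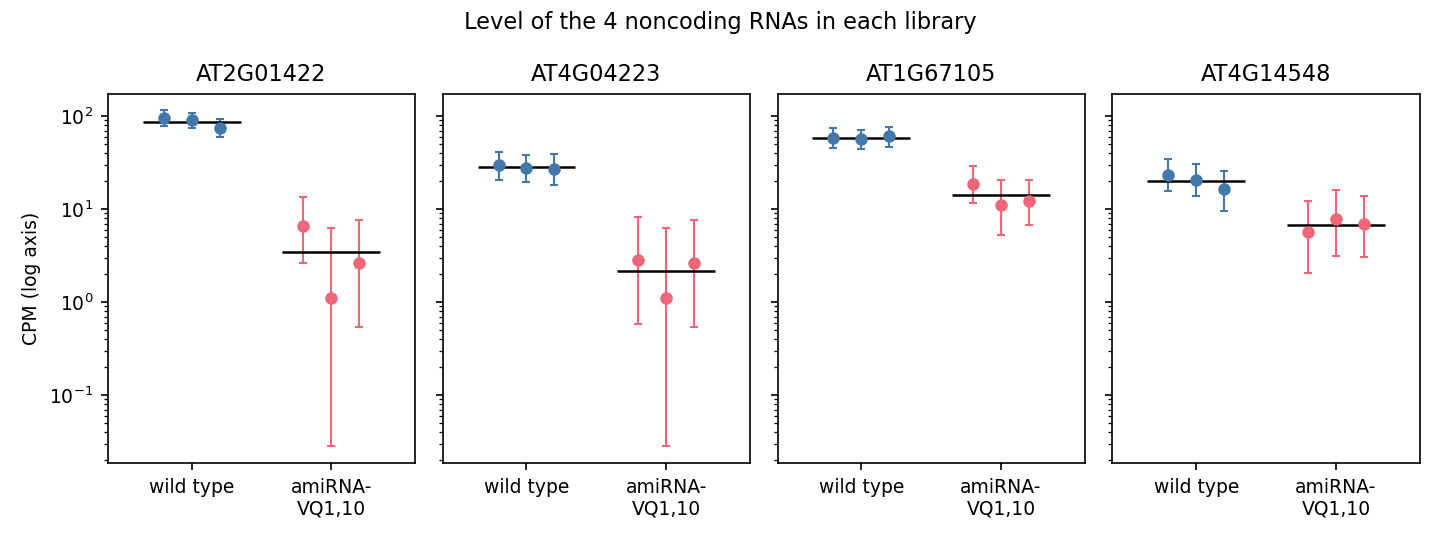
CPM of the 4 noncoding RNAs in each library on a log axis, in the order of replicates 1 to 3 within a genotype. Bars are exact Poisson 95% intervals, which cover counting error only, and black lines are means. All amiRNA-VQ1,10 libraries lie below all wild type libraries, from 24.6-fold for AT2G01422 to 2.99-fold for AT4G14548 on summed counts, and intervals of single libraries overlap between genotypes for AT4G14548.

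The values that chose the 4 RNAs differed widely in strength. In the edgeR fit of all genes the adjusted p was 2.2e-10 for AT2G01422, 2.3e-06 for AT4G04223 and AT1G67105, and 0.0478 for AT4G14548. By this rule 0.102% of all tested genes were called, 0.0787% lower and 0.0236% higher, so nothing is read from the 4 being called. Separate ranges with the line below wild type were found in 5.1% of tested genes and the opposite in 5.3%. AT4G14548 lay just inside the threshold, beside bHLH39 and AT2G41190 with the same adjusted p of 0.0478. The next genes outside were AT5G15500 (log2 fold change -1.34, adjusted p = 0.0553) and MO1 (0.78, adjusted p = 0.0641). AT4G14548 had an adjusted p under 0.05 in 5 of 13 alternative fits, with 0.0929 when the replicate number was a block, 0.651 by DESeq2 and 0.160 by limma-voom. AT2G01422 and AT1G67105 had one in 14 of 14 such fits and AT4G04223 in 13 of 13. These fits used the libraries that chose the 4 RNAs. The numbers of fits describe the dependence on processing and give no further support.

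The 4 RNAs ranked by level in a different order in each genotype. In wild type the order was AT2G01422, AT1G67105, AT4G04223 and AT4G14548, and the last pair had ranges of 27.2 to 29.6 and 16.3 to 23.5 CPM. In amiRNA-VQ1,10 the order was AT1G67105, AT4G14548, AT2G01422 and AT4G04223. There AT2G01422 and AT4G04223 did not differ beyond their spread, with 1.11 CPM for both in replicate 2 and 2.63 CPM for both in replicate 3. AT4G14548 and AT2G01422 overlapped as well, at 5.66 to 7.79 and 1.11 to 6.60 CPM. Together the 4 RNAs summed to 207, 195 and 179 CPM in wild type and 33.9, 21.1 and 24.5 CPM in amiRNA-VQ1,10.

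Genes with a like profile over the 6 libraries were sought by the root mean square difference in log2 CPM, centred on the mean of the libraries. Most of this likeness comes from the genotype difference that chose the RNAs, and it is a description. The gene nearest to AT4G04223 was QQS, a species-specific gene whose loss raises starch in leaves, at 0.24, followed by AT1G67105 at 0.52 and AT2G01422 at 0.70. AT2G01422 was nearest to AT4G04223 (0.70), QQS (0.73) and AT1G67105 (1.16). AT1G67105 was nearest to CYP705A25, a cytochrome P450 gene, at 0.44, to AT3G17740 at 0.45 and to AT4G14548 at 0.47. AT4G14548 was nearest to WNK10, a kinase gene, at 0.22, to AT1G31850 at 0.24 and to RGF7, a peptide gene, at 0.27. None of CYP705A25, AT3G17740, WNK10, AT1G31850 and RGF7 was called by edgeR (adjusted p from 0.320 to 0.642). Their levels were low, between 3.34 and 16.2 CPM in single libraries. From AT4G14548 the other RNAs were far, with AT2G01422 at 1.54 and AT4G04223 at 0.86, while AT1G67105 stood at 0.47. AT2G01422 was also far from AT1G67105 by that gene's own median. The median over all tested genes was 2.16 for AT2G01422, 1.5 for AT4G04223, 1.02 for AT1G67105 and 0.72 for AT4G14548.

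Other noncoding RNAs were then compared between the genotypes. Of 3780 annotated noncoding RNAs in the files, 89 were tested, of which 51 carry the same biotype as the 4 RNAs (ncRNA) and 38 are annotated as lncRNA. By the choice of the 4, the edgeR quasi-likelihood test could call none of the other 85 as lower. It called none of them as higher, and DESeq2 and limma-voom called none of the 85. At an unadjusted p under 0.05 there were 5 of them, which is 5.88%, against 6.02% of all tested genes, and all 5 had a lower mean in the line (AT3G51075, AT1G07367, AT4G36032, AT4G36648 and AT3G06355, the last at -0.24 and AT4G36032 at -0.58 on the log2 scale). Their median log2 fold change was -0.01, against 0.00 over all genes, and 41 were above 0 and 44 below. The 4 RNAs were the lowest 4 of the 89 by log2 fold change, which follows in part from how they were chosen.

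The nearest of the other noncoding RNAs in this order was AT3G51075, which had 13.8 ± 4.06 CPM in wild type and 6.29 ± 2.22 CPM in the line (SD, n = 3; edgeR adjusted p = 0.489). AT1G07367 and AT4G36648 had log2 fold changes of -0.89 ± 0.37 and -0.27 ± 0.12 (SE). In the other direction AT4G13495, AT1G26208 and AT4G38932 had 0.31 ± 0.17, 0.50 ± 0.32 and 0.23 ± 0.15 (SE). None of these 6 passed. By wild type level AT2G01422 ranked 12 among the 89, AT1G67105 ranked 20, AT4G04223 ranked 34 and AT4G14548 ranked 47. In amiRNA-VQ1,10 they ranked 88, 61, 89 and 85.

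**Figure D2:**
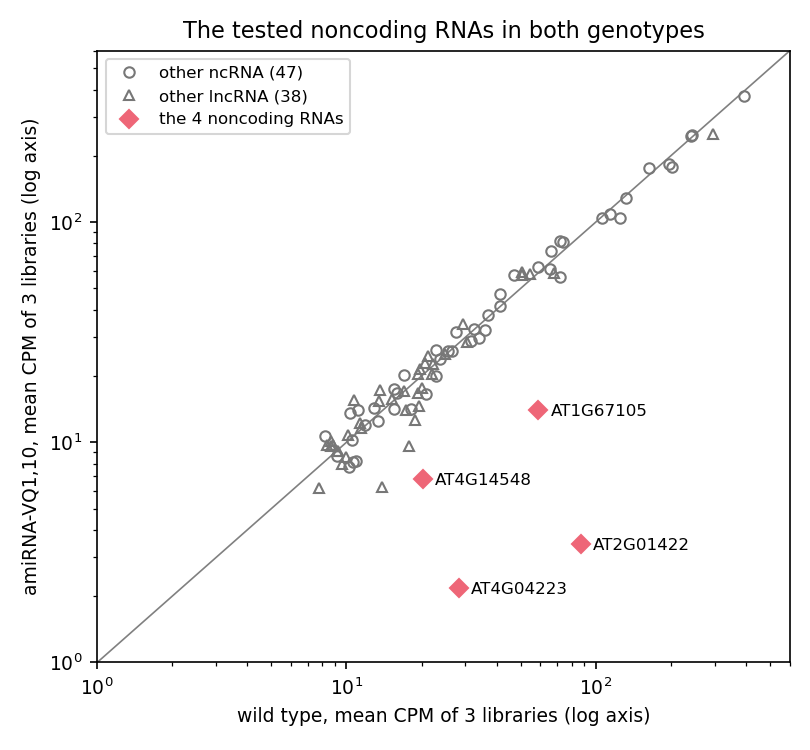
Mean CPM of the 89 tested noncoding RNAs in wild type (horizontal, log axis) and in amiRNA-VQ1,10 (vertical, log axis), with 3 libraries each; the line marks equal levels. The 85 other noncoding RNAs lie along the line, with log2 fold changes from -1.11 to 0.50, and the 4 noncoding RNAs lie below it, from -4.58 to -1.56.

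Noncoding RNAs with a known role stood close to wild type. Of 11 listed, 6 were tested and none passed by edgeR, DESeq2 or limma-voom, where edgeR called 0.102% of all tested genes. At an unadjusted p under 0.05 in edgeR there were 0, against 6.02% of all tested genes. The median log2 fold change of the 6 was 0.01. TAS3, the precursor of trans-acting small RNAs that lower auxin response factors, had a log2 fold change of 0.19 ± 0.14 (SE), and TAS1A, another such precursor, -0.21 ± 0.21. AT4 (AT5G03545), an RNA of phosphate starvation that holds a microRNA, had 72.3 ± 24.1 and 78.7 ± 29.3 CPM (SD, n = 3).

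Position on the chromosome was not used to choose the 4 RNAs, so their neighbours were compared between the genotypes. Among the 5 annotated genes on each side of each RNA, 40 in all, 36 were in the files and 18 were tested. None passed by edgeR, DESeq2 or limma-voom, where edgeR called 0.102% of all tested genes. In edgeR 1 neighbour (5.56%) had an unadjusted p under 0.05, against 6.02% of all tested genes. The median log2 fold change of the neighbours was -0.01. AT2G01422 starts 175 bases from PIN4, which encodes a carrier that moves auxin out of cells and is read in the opposite direction. PIN4 had 89, 101 and 75 counts in wild type and 85, 74 and 96 in amiRNA-VQ1,10. These ranges overlap, and the log2 fold change of PIN4 was 0.14 ± 0.13 (SE, edgeR adjusted p = 0.948), against -4.58 for AT2G01422. On the other side HB17, a homeodomain transcription factor gene, had 9.74 ± 2.68 and 6.34 ± 4.34 CPM (SD, n = 3; edgeR adjusted p = 0.910).

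The interval between PIN4 and AT2G01422 is printed because 2 genes with unlike values start from its ends (chr2:183765-183989, TAIR10.1, plus strand). It runs from the base next to PIN4 to 50 bases into AT2G01422.
AT2G01422: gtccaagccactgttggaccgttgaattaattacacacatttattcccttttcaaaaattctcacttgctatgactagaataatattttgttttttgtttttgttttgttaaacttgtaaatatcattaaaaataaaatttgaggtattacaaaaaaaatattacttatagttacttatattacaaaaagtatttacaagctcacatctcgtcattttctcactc

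AT4G14548 ends 57 bases from the end of IAA14, which encodes a repressor of auxin response known from lateral root formation and is read toward it. IAA14 had 14, 22 and 13 counts in wild type and 25, 14 and 20 in amiRNA-VQ1,10, a log2 fold change of 0.46 ± 0.27 (SE, edgeR adjusted p = 0.867). The counts overlap between the genotypes. Reads of 1 strand cannot be told from the other where the strand setting is not given, but the 2 gene models do not overlap. IAA1, another gene of this family 3 genes away, had -0.35 ± 0.22 (SE).

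AT4G04223 starts 15 bases from AT4G04221, an lncRNA read in the opposite direction that overlaps the receptor-like protein gene RLP46. AT4G04221 had 2, 5 and 1 counts in wild type and 1, 2 and 2 in amiRNA-VQ1,10, too few to be tested. PUX4, a gene for a cofactor of the protein-unfolding enzyme CDC48, was the nearest tested neighbour and had a log2 fold change of -0.16 ± 0.15 (SE). For AT1G67105 the directly adjacent genes LBD40 and CYP735A2 had at most 3 counts in any library. RBCS1A, the small subunit of Rubisco and the next gene beyond LBD40, had 5681 ± 73.6 and 6158 ± 147 CPM (SD, n = 3). Its log2 fold change was 0.12 ± 0.05 (SE, edgeR adjusted p = 0.781). It was the neighbour with an unadjusted p under 0.05.

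**Figure D3:**
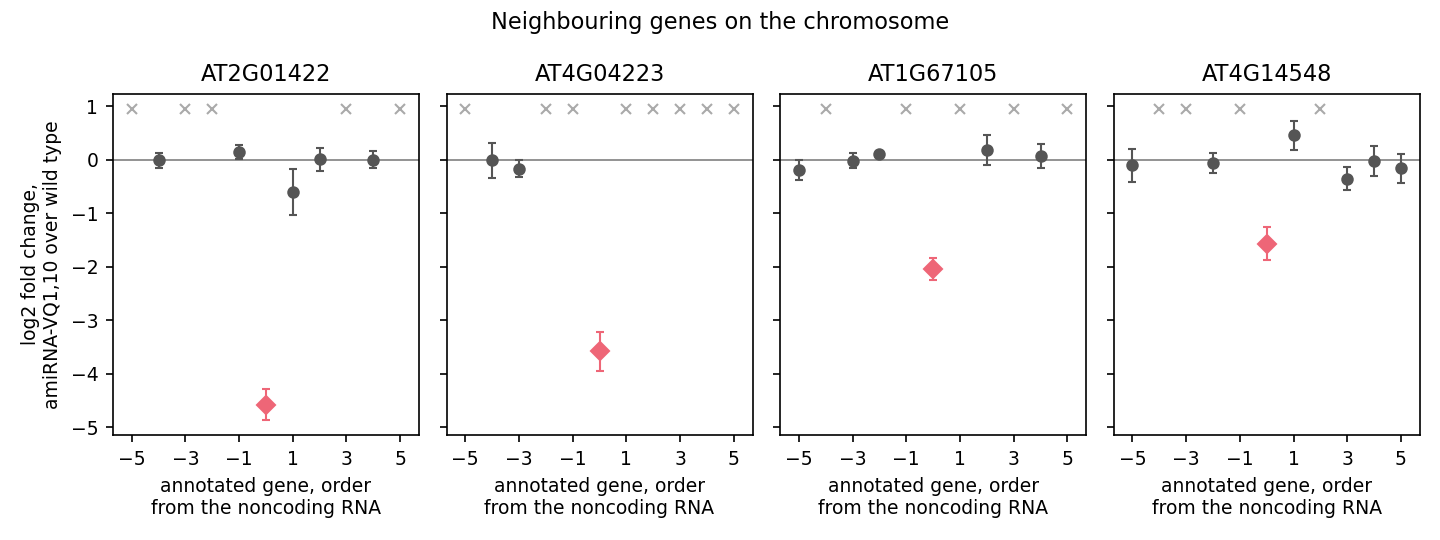
Log2 fold change with SE of the tested genes among the 5 annotated neighbours on each side (grey points) and of the noncoding RNA itself (red diamond at position 0); crosses at the top mark neighbours that were not tested. The tested neighbours lie between -0.60 and 0.46, and the 4 noncoding RNAs lie between -4.58 and -1.56.

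The regions from 250 bases before to 50 bases after the start of each RNA were searched on both strands for 8 motifs. W-box letters (TTGACC or TTGACT), bound by the WRKY factors with which VQ proteins are known to pair, were in none of the 4, while TTGACC was in 13.8% and TTGACT in 21.4% of 32546 regions of all genes. The G-box letters CACGTG were in none of the 4 and in 7.11% of all. The evening element AAAATATCT was in none and in 2.64% of all, the telo-box AAACCCTA in none and in 6.19%, and the GCC box GCCGCC in none and in 2.63%. TATAAA was in the regions of AT1G67105 and AT4G14548 and in 50.6% of all. TATCCA was in that of AT4G14548 and in 16.0% of all. No motif overlaps another in these regions, and no motif was in all 4.

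Genes that hold sequence related to the 4 RNAs were then compared between the genotypes. These genes were found by blastn (at least 100 aligned bases), after the values of the 4 RNAs were known. Beside the 4 RNAs themselves there were 27 annotated genes, of which 23 were in the files and 9 were tested. By edgeR 1 of the 9 passed, AT3G56210, and it fell, where 0.102% of all tested genes were called. The other 8 had log2 fold changes between -0.26 and 0.34. AT2G01422 and AT4G14548 had matches in 9 and 11 of these genes, of which 8 were the same genes. AT1G67105 matched 12 genes, none of them matched by the other RNAs, and AT4G04223 matched 3.

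AT3G56210, which holds the near-identical copy of AT4G04223, had 59, 56 and 63 counts in wild type and 19, 22 and 31 in amiRNA-VQ1,10. The groups did not overlap. Its means were 50.5 ± 7.00 and 23.2 ± 4.75 CPM (SD, n = 3). The log2 fold change of AT3G56210 was -1.11 ± 0.20 (SE, edgeR adjusted p = 0.0162). The call was lost by DESeq2 (adjusted p = 0.174), without wild type replicate 1 or 3 (0.0540 and 0.0876) and without amiRNA-VQ1,10 replicate 1 (0.120). Whether the reads of AT3G56210 come from its copy or from AT4G04223 was not tested. The other copies were less alike, and those in annotated genes were lower in counts. AT5G38005, a noncoding RNA 92.7% identical over 577 bases, had 10, 9 and 8 counts against 5, 6 and 9, too few to be tested. That match lies away from the 3′ end of AT4G04223. At the 3′ end AT5G38005 matched 172 bases with 96.5% identity. A stretch of chromosome 1 without an annotated gene matched 205 bases there with 95.6% identity. AT5G19630, 90.8% identical over 403 bases, had a log2 fold change of -0.26 ± 0.33 (SE).

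Of the 12 genes related to AT2G01422 or AT4G14548, 4 were tested and none passed by edgeR, and 8 were not tested. AT3G06125, the noncoding RNA with the highest level in both genotypes, matched AT4G14548 over 272 bases at 71.7% identity and AT2G01422 over 151 bases at 77.5%. It had 439, 518 and 436 counts in wild type and 391, 323 and 453 in amiRNA-VQ1,10, a log2 fold change of -0.06 ± 0.08 (SE, edgeR adjusted p = 0.972). AT3G28900 carries the sequence most like AT2G01422 on its opposite strand, with 89.8% identity over 461 bases, and had a log2 fold change of 0.07 ± 0.13 (SE). AT3G28899 holds the same stretch on its own strand. It had 3, 1 and 0 counts in wild type and 0, 1 and 0 in amiRNA-VQ1,10, too few to be tested. AT5G60340, 66.9% identical to AT2G01422 over 278 bases, had 58.0 ± 7.04 CPM in wild type and 73.4 ± 16.4 CPM in the line (SD, n = 3). Its log2 fold change of 0.33 ± 0.16 (SE, edgeR adjusted p = 0.827) was the largest of the 4. AT3G46845, 74.9% identical to AT4G14548 over 710 bases, had 0.11 ± 0.15 (SE). The closest relative of AT1G67105 in length, AT3G45820 with 72.6% identity over 726 bases, had 0 counts in all 6 libraries.

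**Figure D4:**
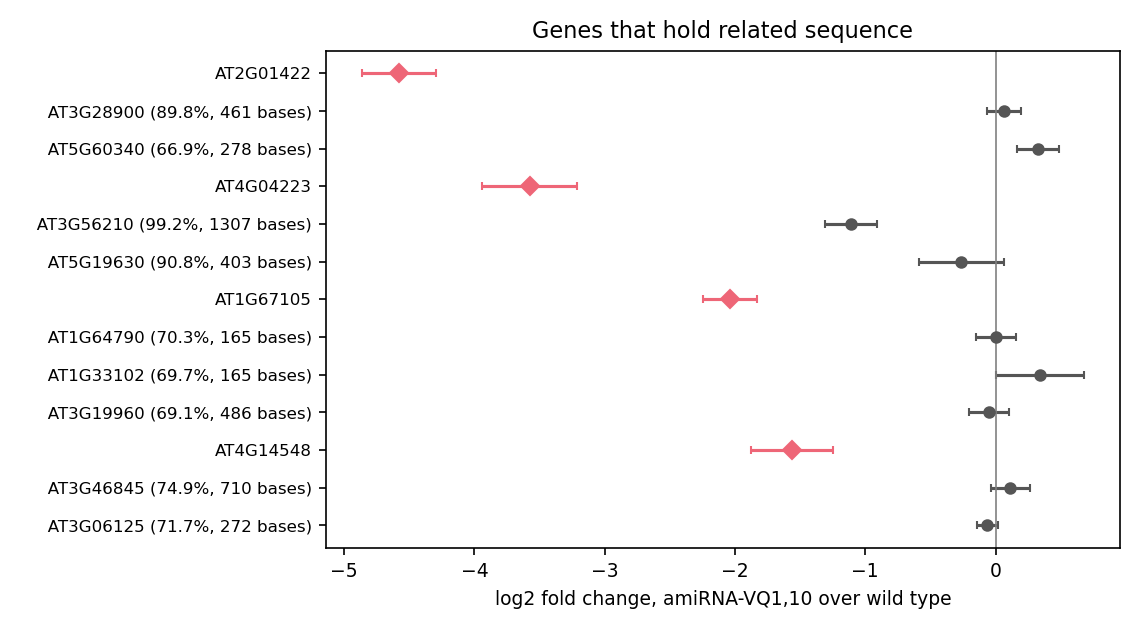
Log2 fold change with SE of the 4 noncoding RNAs (red diamonds) and of the 9 tested genes that hold related sequence (grey points), each under the RNA with its longest match, with the identity and the aligned length. AT3G56210 lies at -1.11 and the other 8 between -0.26 and 0.34.

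Genes that act on noncoding RNA, on small RNA and on silencing were not called. Of all tested genes edgeR called only 0.102%, so nothing is read from this. The RNA-directed DNA methylation pathway uses small RNAs to place methyl groups on DNA. Of its 20 listed genes 9 were tested and none passed (edgeR, median log2 fold change 0.19). DRM2, the methyltransferase of this pathway, had 0.55 ± 0.31 and DMS3, a chromatin protein of it, 0.44 ± 0.26 (SE). Of 14 genes that maintain or remove DNA methylation or keep genes silent, 9 were tested and none passed (median -0.05). CMT3, a methyltransferase for sites outside CG, had -0.56 ± 0.30 and MOM1, a silencing factor, 0.53 ± 0.29 (SE). ROS1, which removes DNA methylation, had 16.6 ± 6.52 and 14.7 ± 3.54 CPM (SD, n = 3).

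Of 20 genes of RNA decay, the exosome, exoribonucleases, decapping and nonsense-mediated decay, 18 were tested and none passed (median 0.07). XRN2, a nuclear exoribonuclease, had a log2 fold change of -0.33 ± 0.16 and SAL1, whose loss is known to block exoribonucleases, -0.30 ± 0.19 (SE). Of 12 genes that make or use microRNAs 9 were tested and none passed (median -0.13). CBP80 (ABH1), a cap-binding protein, had 0.58 ± 0.33 and HYL1, a partner of the enzyme DCL1, 0.42 ± 0.28 (SE). In each of these 4 lists 0 genes had an unadjusted p under 0.05 in edgeR, against 6.02% of all tested genes. In the lists 0 were called by DESeq2 or limma-voom. Many of these genes had few counts, with median levels of 15.6 to 35.1 CPM per list, so small differences were not detectable at this depth.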

How the data were processed

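Raw counts per gene, whole numbers without normalization, were deposited by the authors, 1 file per library. TAIR10 is the build, and DESeq2, HISAT2 2.0.4 and STAR are the tools, that the submitters' processing notes name, without saying what each did. The sources used here do not give the counting program, its strand setting or the use of the 6 bp molecular identifiers that the labels' protocols describe. Entries that name no gene stayed out; those with more than 1 alignment made up 4.40% to 5.45% of a library.

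Counts were scaled by TMM and fitted over all genes in edgeR 4.0.16 (quasi-likelihood test, filterByExpr with a minimum count of 10, Benjamini-Hochberg adjustment, threshold 0.05, R 4.3.3). CPM use the TMM-scaled totals. The SE was obtained by dividing the size of the log2 fold change by the root of its F statistic. Intervals cover counting error only. DESeq2 1.42.0 and limma-voom (limma 3.58.1) were run beside it. P-values measure the spread between libraries, which the series calls independent biological replicates; replicate libraries differed by more than sampling noise.

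Sequences and positions are from the RefSeq genome and annotation of TAIR10.1, whose nuclear chromosomes are those of TAIR10. Related sequence was sought with blastn 2.17.0 (E value 1e-05) in the 5 nuclear chromosomes. Biotypes and names are from the same annotation (32548 of 32833 identifiers matched).

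The 4 RNAs, the lists and the tests were chosen with earlier results of these data known. Named genes are the 4 RNAs, adjacent tested genes, the 3 most alike profiles, the 3 noncoding RNAs with the smallest p in each direction and the 2 genes with the smallest p per list; ROS1, AT4, IAA1, PUX4 AT4G36032, AT3G06355 and the genes of related sequence were added after their values were seen.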

Additional observations from a re-analysis of the deposited data

How the results depend on the processing

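There were 14 alternatives. The log2 fold changes of the 4 RNAs kept their sign in every fit that could be made. AT4G04223 and AT4G14548 had too few counts for the strict filter (50 counts in 3 libraries). With a library left out AT2G01422 ranged from -5.40 to -4.23, AT4G04223 from -3.77 to -3.32, AT1G67105 from -2.31 to -1.92 and AT4G14548 from -1.69 to -1.45. Both values of -5.40 and -2.31 were without amiRNA-VQ1,10 replicate 1. Over all genes 13 were called, against 92 with no filter, 6 with the strict filter, 6 by DESeq2, 8 by limma-voom and 10 to 37 with a library left out (37 when wild type replicate 2 was dropped and 22 when amiRNA-VQ1,10 replicate 3 was). Of the noncoding RNAs 4 were called, 2 with the strict filter, and those called were among the 4 RNAs in all 14 alternatives. No neighbour and no gene of the 5 lists was called in any of them. Same-numbered libraries did not deviate together (correlations of -0.032 to -0.0065), so the numbers are not taken as pairs; with the replicate block 16 genes were called, and the log2 fold changes were -1.55 for AT4G14548 (adjusted p = 0.0929) and -1.13 for AT3G56210 (0.0225). With 1 to 8 counts per amiRNA-VQ1,10 library, the depth limits how closely the low levels of AT2G01422, AT4G04223 and AT4G14548 are known.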

Other observations

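Noncoding RNAs other than the 4 made up a slightly smaller share of all counts in the line. Without the 4 RNAs they were 0.478%, 0.473% and 0.484% of counts in wild type and 0.457%, 0.452% and 0.470% in amiRNA-VQ1,10. The groups did not overlap, with means of 0.479% ± 0.00537 and 0.460% ± 0.00953 (SD, n = 3). A two-sided exact permutation test gave p = 0.1, the smallest that 3 against 3 libraries can give. It cannot fall under 0.05 and adds nothing to the separate ranges, so no difference is concluded from it. The 4 RNAs themselves were 3.51% to 4.06% of the counts of noncoding RNAs in wild type and 0.452% to 0.708% in amiRNA-VQ1,10. The number of annotated noncoding RNAs with a count was 389 to 400 in wild type and 360 to 398 in amiRNA-VQ1,10, lowest in replicate 2, the library with the lowest total.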
